A study of Saccharomyces cerevisiae with 18 samples.

Results

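Chromatin accessibility was compared between the later and the earlier time points of the Oxidative phase of the yeast metabolic cycle. The late Oxidative group comprised the 3 libraries of time points 8, 9 and 10, and the early Oxidative group the 2 libraries of time points 6 and 7, which are 5 of the 18 libraries of the series. All 5 libraries came from Saccharomyces cerevisiae cells cycling in a fermenter, and no treatment or genetic change separates the groups. Neither the strain nor the minutes between time points is given in the sources used here. The assay was ATAC-seq, which uses a transposase to tag DNA that is not covered by nucleosomes or other proteins, so that more counts at a site mean more accessible chromatin. The 2042 peaks of the nuclear chromosomes outside the ribosomal DNA were compared, out of 2086 peaks in all, together with the shares of counts from the 32 mitochondrial and 12 ribosomal DNA peaks. A coding gene started no more than 500 bp from 1766 (86.5%) of the nuclear peaks, and these were taken as promoter peaks.

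In the yeast metabolic cycle, cells in continuous culture alternate between a burst of oxygen consumption and longer reductive phases. The oxidative burst is known for the expression of ribosomal protein and other growth genes, while genes of respiration on stored carbon, fatty acid breakdown, storage carbohydrate and stress protection belong to the charging phase. An accessible promoter is one from which nucleosomes have been cleared, which often but not always goes with transcription.

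The late libraries held 6372179, 12454643 and 28728832 counts at time points 8, 9 and 10, and the early libraries held 19690824 and 19858880 at time points 6 and 7. Of these, 2882700, 4355434 and 12477489 counts in the late libraries and 5269566 and 8880944 in the early libraries fell in nuclear peaks. Nuclear values are given as counts per 1000000 nuclear counts (CPM). In each of the 5 libraries, at most 8 of the 2042 nuclear peaks had no count, and 3 counts corresponded to between 0.24 and 1.04 CPM. Each time point had 1 library from a single sampling, so p-values measure only the spread between time points of a group, which may be technical. The series was collected in 2 batches that the labels used here do not assign to libraries, so a batch boundary between time points 7 and 8 cannot be told apart from the difference between the groups. In bulk samples, a smaller share of cells with an open promoter and a less open promoter in each cell cannot be told apart either.

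Accessibility fell in the late libraries at the promoters of ALD4 (acetate formation) and ATO2 (of the acetate and ammonium transporter family). It also fell at those of YEF1 (NADP supply), GIP2 (a phosphatase subunit), PRR2 (a kinase) and RPL43B (a ribosomal protein). It fell likewise at a peak over the start of FAT3 (fatty acid uptake) that reaches into MTR2 (messenger RNA export). It rose at the promoter of TOD6, a repressor of ribosome biogenesis, and upstream of UTH1, a cell wall gene. In all, 10 of the 2042 peaks passed edgeR's quasi-likelihood test at an adjusted p under 0.05 (Benjamini-Hochberg over all 2042). Of these, 2 peaks (0.0979% of those tested) were higher and 8 (0.392%) were lower in the late libraries. At an unadjusted p under 0.05 there were 105 higher and 127 lower peaks. The plot of CPM by time point shows the 10 peaks in each library.

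**Figure D1:**
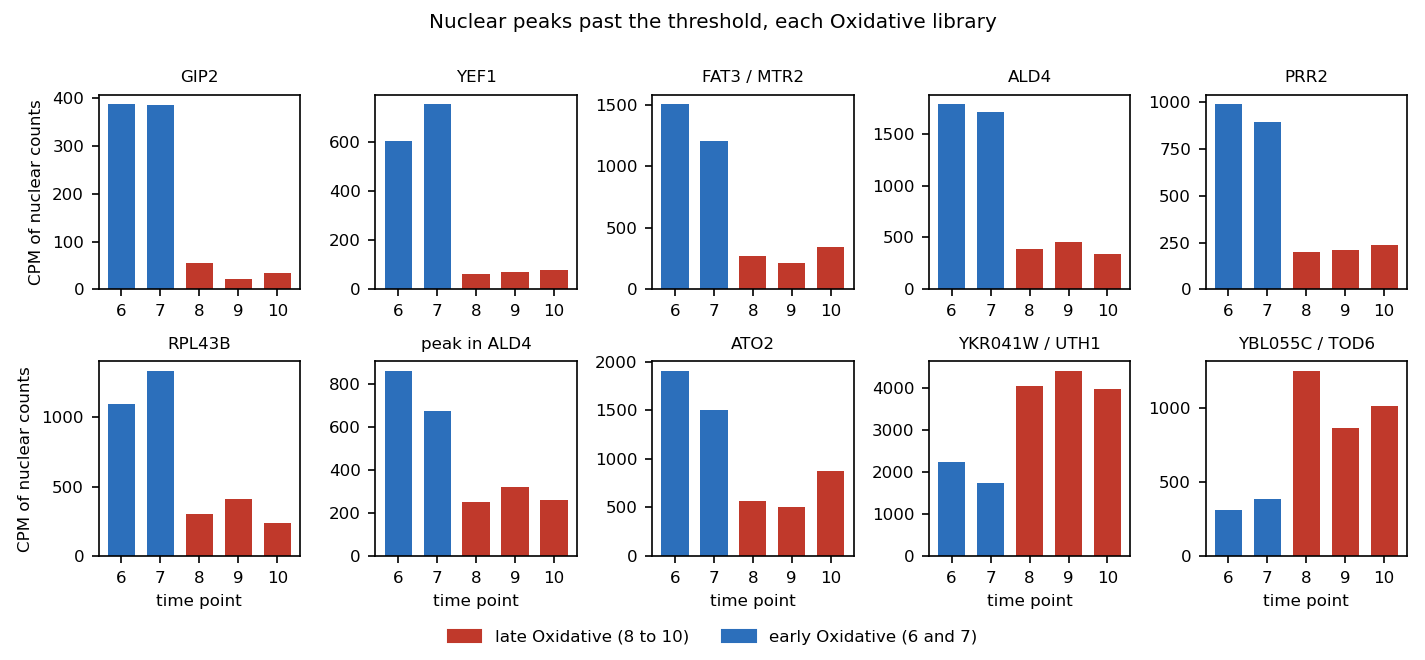
Bars give the CPM of nuclear counts (vertical axis, starting at 0, with its own scale in each panel) at each Oxidative time point (horizontal axis) for the 10 peaks past the threshold, red for late and blue for early libraries. In each panel every late library lies on one side of both early libraries, for example 55.9, 21.8 and 34.4 CPM at GIP2 in late libraries against 387.5 and 385.4 CPM in early ones.

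The smallest adjusted p was that of ALD4, which encodes the main mitochondrial aldehyde dehydrogenase, an enzyme that turns acetaldehyde into acetate. Its promoter peak (R64, chromosome XV, 1038974 to 1040046, reaching into the first 207 bp of the coding region and the last 416 bp of the neighbouring NUD1) had 386.4, 459.0 and 339.6 CPM at time points 8, 9 and 10, against 1786 and 1713 CPM at time points 6 and 7. All 3 late libraries were well below both early ones, and the mean was 4.43-fold lower (log2 fold change −2.15 ± 0.22 SE, edgeR adjusted p = 0.000285). A second peak (1040534 to 1041496) had 866 of its 963 bp in the ALD4 coding region, ran past the end of the gene and had no gene start within 500 bp. It is outside the rule for named genes and is given because it passed the same test, with 250.1, 322.6 and 260.7 CPM in late libraries against 861.7 and 675.5 CPM in early libraries (log2 fold change −1.47 ± 0.29 SE, edgeR adjusted p = 0.0361). The 2 peaks at this gene therefore moved the same way, the one mostly over the coding region by less.

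ATO2 encodes a plasma membrane protein of the acetate and ammonium transporter family. Its promoter peak (chromosome XIV, 633642 to 634746, which also covers 403 bp of RPC34) had 562.0, 503.0 and 873.1 CPM in late libraries and 1906 and 1507 CPM in early libraries. The groups did not overlap, although time point 10 stood nearer to the early libraries than time points 8 and 9 did (log2 fold change −1.40 ± 0.25 SE, edgeR adjusted p = 0.0160).

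FAT3 encodes a protein required for fatty acid uptake, and MTR2, the next gene on the same strand, a subunit of the messenger RNA export receptor. One peak (chromosome XI, 91525 to 93046) spans the region between them and lies within 500 bp of both gene starts. It had 273.0, 215.8 and 342.8 CPM in late libraries, against 1507 and 1205 CPM in early libraries. All late libraries were far below both early ones, and the mean was 4.89-fold lower (log2 fold change −2.29 ± 0.26 SE, edgeR adjusted p = 0.000367). The peak touches the first 12 bp of the FAT3 coding region and 303 bp of that of MTR2, and it cannot say which gene it serves.

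YEF1 encodes a kinase that phosphorylates NAD and NADH to make NADP and NADPH. The peak next to its start (chromosome V, 75035 to 75914, also covering 293 bp of GDA1) had 64.2, 68.7 and 79.4 CPM at time points 8, 9 and 10. At time points 6 and 7 it had 603.1 and 753.4 CPM. The late values were close to each other and the mean was 9.59-fold lower than in early libraries (log2 fold change −3.26 ± 0.36 SE, edgeR adjusted p = 0.000319).

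GIP2 encodes a regulatory subunit of the protein phosphatase Glc7, which acts on glycogen metabolism among other processes. A peak (chromosome V, 264165 to 264763) lying 467 bp from its start had 55.9, 21.8 and 34.4 CPM in late libraries, from 161, 95 and 429 counts, and 387.5 and 385.4 CPM in early libraries. Its mean was 10.4-fold lower in late libraries, the largest ratio of means among the 10 peaks (log2 fold change −3.38 ± 0.51 SE, edgeR adjusted p = 0.00376).

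PRR2 encodes a protein kinase linked to pheromone signalling. The peak beside its start (chromosome IV, 76552 to 77443, also covering 155 bp of NOP6) had 198.1, 211.9 and 234.8 CPM in late libraries, against 991.7 and 895.1 CPM in early libraries. Neither group spread by more than a small part of the gap between them (log2 fold change −2.13 ± 0.28 SE, edgeR adjusted p = 0.001).

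RPL43B encodes a protein of the large ribosomal subunit and was the one ribosomal protein gene of the list whose promoter changed past the threshold. Its peak (chromosome X, 607392 to 608562), which overlaps the noncoding transcript IRT1 by 33 bp, had 306.3, 411.4 and 237.0 CPM in late libraries, against 1099 and 1337 CPM in early libraries. The groups did not overlap (log2 fold change −1.94 ± 0.28 SE, edgeR adjusted p = 0.00256). RPL43A, its near-identical copy elsewhere in the genome and outside the rule for named genes, had 139.8, 236.9 and 256.2 CPM in late libraries and 212.0 and 396.2 CPM in early libraries, and these overlapped (edgeR adjusted p = 0.748). Values of such copies are uncertain where reads map to both. The peak at RPL43B also reaches IRT1 and cannot say which of them it serves.

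TOD6 encodes a DNA-binding repressor of ribosome biogenesis genes. It shares a divergent promoter with YBL055C, which encodes a nuclease of the TatD family. The peak between them (chromosome II, 116664 to 117525, ending 64 bp before the start of TOD6) had 1254, 863.7 and 1015 CPM in late libraries, against 310.7 and 389.5 CPM in early libraries. All late libraries were above both early ones, with a mean 2.98-fold higher (log2 fold change 1.58 ± 0.26 SE, edgeR adjusted p = 0.00979).

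UTH1 encodes a protein of the SUN family with roles in the cell wall and in mitochondria. A peak upstream of it (chromosome XI, 518109 to 519379) covers the coding region of YKR041W, a gene of unknown function, and has a transfer RNA gene within 100 bp. It had 4041, 4409 and 3969 CPM in late libraries and 2239 and 1748 CPM in early libraries, which makes it the most accessible of the 10 peaks. The late values were alike and about 2.08-fold higher in the mean (log2 fold change 1.05 ± 0.19 SE, edgeR adjusted p = 0.0160).

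The nearest peak outside the threshold was that of HPF1, a cell wall mannoprotein gene, named here after its values were seen. It had 558.5, 599.0 and 781.2 CPM in late libraries and 1348 and 1381 CPM in early libraries (log2 fold change −1.08, edgeR adjusted p = 0.0533). The peaks past the threshold stand out among peaks of middle and high accessibility in the plot of fold change against level. With all 18 libraries in the edgeR fit no peak passed, and 10 had an unadjusted p under 0.05. Leaving out time point 6 left the calls of ALD4 and YEF1, and leaving out time point 7 left those of ALD4, YEF1, FAT3 with MTR2, and PRR2.

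**Figure D2:**
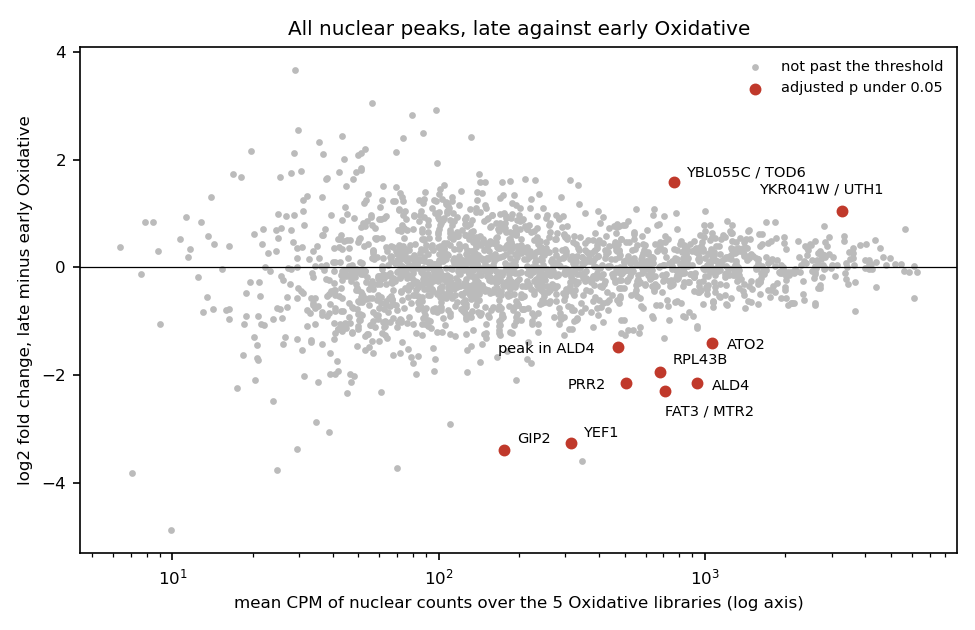
Each point is 1 of the 2042 nuclear peaks, by its mean CPM over the 5 Oxidative libraries (horizontal, log axis) and its log2 fold change of late minus early Oxidative (vertical). The 10 peaks past the threshold are red and named, 2 above the zero line and 8 below it, and peaks of low level spread more widely.

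The levels of the 10 peaks in the other phases were not used to choose them. In each of the 5 Reductive Charging libraries that precede the Oxidative phase (time points 1 to 5), all 10 peaks lay on the early Oxidative side of the midpoint between the late and early means. Among the well-covered libraries after it, 6 of 10 lay on the early side at time point 12 (Reductive Building), 9 of 10 at time point 14 (Reductive Building) and 9 of 10 at time point 17 (Reductive Charging). The same count was taken over the 2024 nuclear peaks with a count in all 5 Oxidative libraries, of which 63.4% to 67.6% lay on the early side at time points 1 to 5, 53.7% at time point 12, 60.4% at time point 14 and 57.7% at time point 17. Over the 588 of these whose late and early libraries did not overlap, as in the 10, the shares were 77.6% to 84.0%, 56.8%, 69.0% and 66.3% in the same order. Nuclear peaks at large thus also stood nearer to the early libraries in the preceding phase, and the late values behind the midpoints are those by which the 10 were chosen.

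ALD4 had 769.0 CPM at time point 12, 3043 CPM at time point 14 and 2558 CPM at time point 17, and between 2094 and 2769 CPM at time points 1 to 5. GIP2 was still at 48.7 CPM at time point 12, as in the late Oxidative libraries, and had 474.3 and 532.3 CPM at time points 14 and 17. These are the genes for acetate formation and for the phosphatase subunit, and both were high again at the later time points. TOD6 with YBL055C had 311.4, 323.4 and 145.7 CPM at time points 12, 14 and 17, against 230.1 to 422.6 CPM at time points 1 to 5, so that among these 13 libraries the 3 late Oxidative ones were the 3 highest. UTH1 with YKR041W had 3194 CPM at time point 12, and then 2441 and 2177 CPM. RPL43B was the exception among the 10, with 518.8, 401.6 and 355.5 CPM at time points 12, 14 and 17, on the late side in all 3 libraries. ATO2 had 2725, 3920 and 2151 CPM there, each above both early Oxidative libraries.

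**Figure D3:**
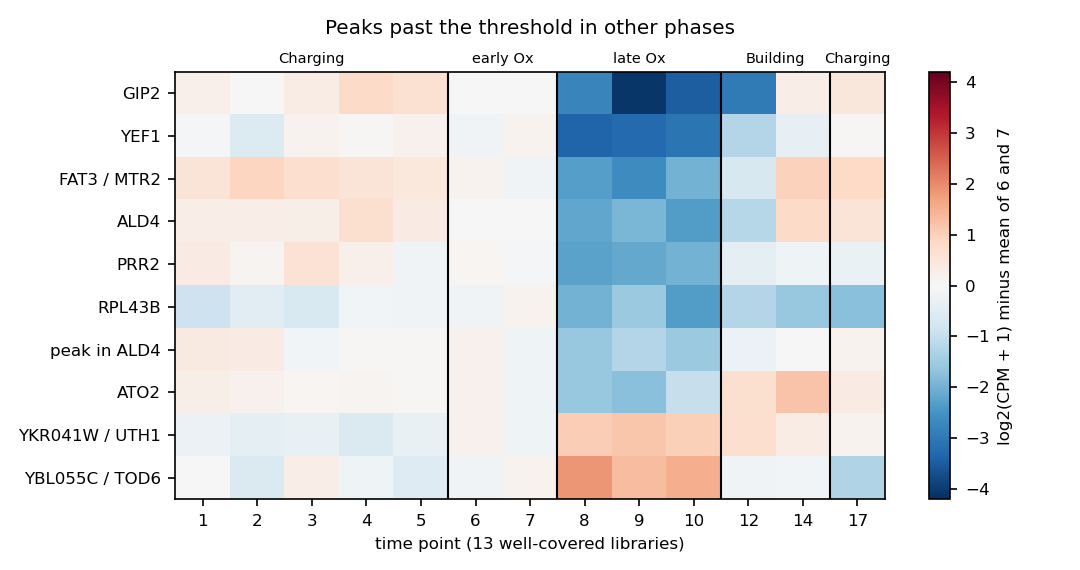
Colours give log2(CPM + 1) minus the mean of time points 6 and 7 for the 10 peaks past the threshold (rows) in the 13 well-covered libraries in time order (columns), blue for lower and red for higher. The peaks were chosen by the difference of time points 8 to 10 from 6 and 7, so those columns stand apart by that choice. At time point 12, 4 of the 10 were on the late side of the midpoint, and at time point 14 only RPL43B was.

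Gene groups were described by how many of their peaks had all 3 late libraries above, or all 3 below, both early libraries. Over all nuclear peaks, 262 (12.8%) had all late libraries above and 330 (16.2%) had all late libraries below, and the median log2 fold change was −0.02. Beside each list's median, the lowest and highest medians obtained when 1 library at a time was left out are given in brackets, which for all nuclear peaks were −0.12 and 0.12. The 20 lists covered 611 peaks, and 3 of these (ALD4, ATO2 and RPL43B) passed the edgeR threshold, all lower. The counts below are therefore descriptions of the direction of many small differences, and no list was tested as such. Genes without a linked peak were not covered, and several lists were covered only in part. A peak was linked for 21 of 69 mitochondrial ribosome genes, 31 of 76 of DNA replication and G1/S, and 19 of 38 translation factor genes. For mating the number was 16 of 39 and for autophagy 19 of 45, against 125 of 138 for cytosolic ribosomal proteins. With counts scaled to the totals of all peaks, the number of peaks with all late libraries below was 104 in place of 330, and the median over all peaks was 0.16.

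**Figure D4:**
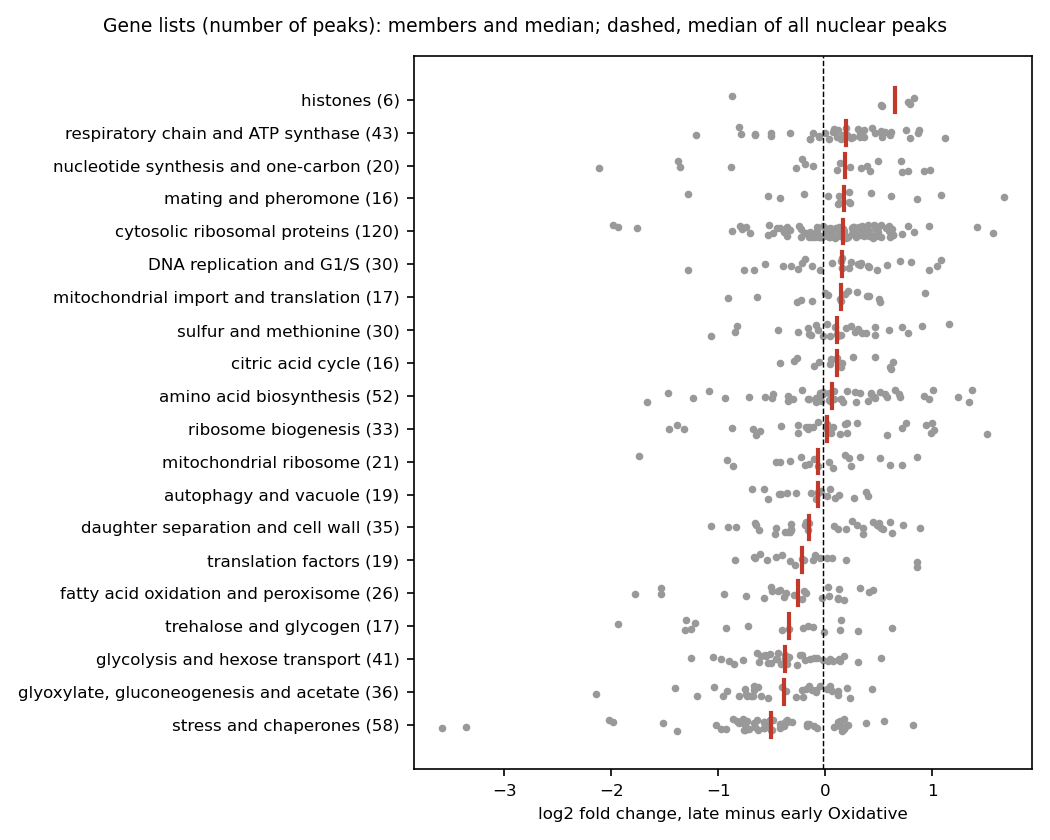
Each grey point is a nuclear peak of a gene list (rows, number of peaks in brackets) at its log2 fold change of late minus early Oxidative (horizontal axis). Red bars are list medians and the dashed line is the median of all nuclear peaks (−0.02), with histones at the top (0.66) and stress and chaperones at the bottom (−0.51).

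The acetate list covered genes of acetate use, the glyoxylate cycle and gluconeogenesis, and also some of pyruvate, lactate and glycerol use. Of its 36 peaks, 15 (41.7%) had all late libraries below and 0 had all late libraries above. The median log2 fold change was −0.38 (−0.51 to −0.27). Of the lactate and glycerol genes, JEN1, CYB2, DLD1, DLD3 and STL1 were among the 15 below, and GUT1 and GUT2 overlapped between the groups. ALD4 and ATO2 passed the test. ALD6, the cytosolic aldehyde dehydrogenase gene, did not, with 2577, 2937 and 2936 CPM in late libraries against 5597 and 4276 CPM in early libraries (edgeR adjusted p = 0.0825). ADY2, for an acetate transporter, had 146.7, 171.1 and 150.5 CPM in late libraries against 382.6 and 333.7 CPM in early libraries (edgeR adjusted p = 0.228). Neither overlapped between the groups. ICL1, for isocitrate lyase of the glyoxylate cycle, had 170.7, 104.9 and 205.5 CPM in late libraries against 230.8 and 287.0 CPM in early libraries, a narrower gap. Of the remaining members, some also had all late libraries below, and the rest, MLS1 among them, overlapped between the groups. MLS1 had 446.8, 492.9 and 555.0 CPM in late libraries against 407.2 and 624.8 CPM in early libraries (edgeR adjusted p = 0.981). ALD6, ADY2, ICL1, MLS1 and the lactate and glycerol genes were chosen after their values were seen. In the list of fatty acid oxidation and peroxisomes, 5 of 26 peaks (19.2%) had all late libraries below, near the 16.2% of all nuclear peaks. None (0) had all above, against 12.8% of all nuclear peaks. The median was −0.25, from −0.49 without time point 10 to 0.04 without time point 7. TES1, for a peroxisomal thioesterase, had 162.0, 49.4 and 127.2 CPM in late libraries and 473.9 and 300.0 CPM in early libraries (edgeR adjusted p = 0.147). POX1, for the first enzyme of peroxisomal beta-oxidation, shares its peak with CHC1 and had 79.1, 58.1 and 82.2 CPM in late libraries and 135.3 and 287.8 CPM in early libraries (edgeR adjusted p = 0.287).

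Stress and chaperone genes had a median of −0.51 (−0.58 to −0.40), the lowest of the 20 lists with all 5 libraries. The acetate list was lower without time point 7 (−0.42 against −0.40), and without time point 10 the trehalose, translation factor and fatty acid lists were lower (−0.61, −0.49 and −0.49 against −0.46). Of 58 peaks, 19 (32.8%) had all late libraries below and 0 had all above, and none passed the adjusted threshold, while 11 were lower at an unadjusted p under 0.05. HSP26, a small heat shock protein gene, had 141.2, 6.43 and 45.9 CPM in late libraries, against 811.8 and 719.6 CPM in early libraries. Its mean was 11.9-fold lower, but the late libraries spread widely, lowest at time point 9 and highest at time point 8 (log2 fold change −3.58 ± 0.81 SE, edgeR adjusted p = 0.0926). SPG4, a gene needed for survival in stationary phase, had 768.7, 598.1 and 647.0 CPM in late libraries and 1233 and 1134 CPM in early libraries (edgeR adjusted p = 0.137). HSP12, a membrane-protecting heat shock protein gene whose peak is shared with MDJ1, had 590.1, 770.8 and 535.5 CPM in late libraries and 1000 and 961.8 CPM in early libraries (edgeR adjusted p = 0.305).

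Storage carbohydrate genes followed the same direction, with 7 of 17 peaks of the trehalose and glycogen list (41.2%) below in all late libraries, 0 above, and a median of −0.34 (−0.61 to −0.23). GPH1, for glycogen phosphorylase, had 662.6, 439.2 and 225.9 CPM at time points 8, 9 and 10, against 1066 and 1113 CPM at time points 6 and 7 (log2 fold change −1.30 ± 0.35 SE, edgeR adjusted p = 0.130). Its late values became smaller with each time point, and it passed the threshold when a linear time term replaced the 2 groups in the edgeR fit (adjusted p = 0.0191). TPS2, for the phosphatase that completes trehalose, had 107.5, 211.2 and 253.4 CPM in late libraries and 458.9 and 455.0 CPM in early libraries (edgeR adjusted p = 0.228). TPS1, for the enzyme before it in the pathway, overlapped between the groups, with 1085, 1164 and 943.5 CPM in late libraries and 1383 and 761.0 CPM in early libraries. It was chosen after its values were seen.

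Glycolysis and hexose transport genes had 15 of 41 peaks (36.6%) below in all late libraries and 2 above, with a median of −0.37 (−0.42 to −0.29). TDH1, a glyceraldehyde-3-phosphate dehydrogenase gene, had 256.4, 415.1 and 297.0 CPM in late libraries and 914.7 and 621.6 CPM in early libraries (edgeR adjusted p = 0.107). HXT7, a high-affinity hexose transporter gene with near-identical copies that make its value uncertain, had 1239, 1364 and 1074 CPM in late libraries and 1767 and 2048 CPM in early libraries (edgeR adjusted p = 0.221). With scaling to the totals of all peaks, the peaks below in all late libraries numbered 5 for stress, 3 for trehalose and glycogen, 6 for the acetate list and 1 for glycolysis. Relative to the median of all peaks, the medians of these 4 lists stayed negative with TMM scaling, totals of all peaks and loess offsets, and without each library in turn.

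Cytosolic ribosomal protein genes leaned the other way. Of 120 peaks, 33 (27.5%) had all late libraries above and 8 (6.67%) all below, with a median of 0.17 (0.08 to 0.32), while the one peak past the threshold, RPL43B, was lower. RPS0A, for a small subunit protein, shares a divergent peak with RTA1 and had 2297, 2325 and 2083 CPM in late libraries and 1085 and 1420 CPM in early libraries (log2 fold change 0.84 ± 0.20 SE, edgeR adjusted p = 0.0985). RPL17B, one of the marks of the cycle, overlapped between the groups, with 1193, 1107 and 910.1 CPM in late libraries and 970.1 and 1033 CPM in early libraries (edgeR adjusted p = 0.939). RPL11B and RPL37B, 2 large subunit genes chosen after their values were seen, stood on the side of RPL43B. RPL11B had 66.6, 54.2 and 97.7 CPM in late libraries against 242.5 and 252.0 CPM in early libraries, and RPL37B had 22.6, 29.6 and 60.6 CPM against 152.2 and 145.6 CPM (edgeR adjusted p = 0.147 and 0.288). The family thus held peaks on both sides, and neither of these 2 passed the test.

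Ribosome biogenesis genes, which TOD6 is known to repress, had a linked peak for only 33 of the 125 genes listed. The peaks of these stood near the median of all peaks. Of 33 peaks, 2 had all late libraries above and 5 all below (median 0.02, −0.14 to 0.24). The member with the smallest p, RIO1, shares a peak with GCY1 and was lower. It had 111.0, 85.9 and 196.8 CPM in late libraries and 236.6 and 450.9 CPM in early libraries (edgeR adjusted p = 0.252). PWP2, for a processing factor of the small subunit, was higher, with 220.6, 198.6 and 249.1 CPM in late libraries and 112.0 and 118.9 CPM in early libraries (edgeR adjusted p = 0.434). The mitochondrial ribosome list, with 21 peaks, had a median of −0.06 (−0.18 to 0.02). The list of mitochondrial import and translation, with 17 peaks, had one of 0.15 (0.07 to 0.19). The respiratory chain and ATP synthase list had a median of 0.20 over 43 peaks, 6 above and 5 below in all late libraries, and the median was 0.02 without time point 10 (0.30 without time point 9). The citric acid cycle list had a median of 0.11 over 16 peaks (−0.06 without time point 10 to 0.25 without time point 7). IDH2, for a subunit of isocitrate dehydrogenase, had 325.7, 466.3 and 556.4 CPM in late libraries and 378.2 and 202.7 CPM in early libraries, which overlapped (edgeR adjusted p = 0.603).

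Histone genes had the highest median of the lists, 0.66 (0.54 to 0.72) over 6 peaks, of which 5 had all late libraries above and 1 all below. Peaks of this short list were also given where the rule did not name them. The peak between HHT2 and HHF2, a divergent pair for histones H3 and H4, had 1758, 1810 and 2597 CPM in late libraries and 1158 and 1145 CPM in early libraries (log2 fold change 0.84 ± 0.22 SE, edgeR adjusted p = 0.127). The HTA1 and HTB1 pair, for H2A and H2B, had 572.0, 597.2 and 547.9 CPM in late libraries and 376.7 and 291.9 CPM in early libraries. The HHT1 and HHF1 pair had 491.6, 585.7 and 702.9 CPM in late libraries and 296.4 and 389.7 CPM in early libraries. All 4 pairs of core histone genes and HTZ1, for the H2A.Z variant, were on the higher side. The peak of HHO1, for the linker histone, was the one on the lower side, with 106.5, 121.0 and 95.9 CPM in late libraries against 189.0 and 205.6 CPM in early libraries. HHO1 shares this peak with NAN1, under which it also counts in the ribosome biogenesis list. None of the 6 passed the adjusted threshold, and 5 had an unadjusted p under 0.05, all higher.

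Genes of DNA replication and the G1/S transition had a median of 0.16 over 30 peaks, 4 above and 2 below in all late libraries, and the median was 0.03 without time point 6 and 0.38 without time point 7. HCM1, a forkhead transcription factor gene of late G1 whose peak also serves BUD31, had 1228, 1039 and 1538 CPM in late libraries and 618.5 and 607.0 CPM in early libraries (log2 fold change 1.05 ± 0.23 SE, edgeR adjusted p = 0.0825). PCL1, a G1 cyclin gene, had 937.7, 638.7 and 883.8 CPM in late libraries and 376.5 and 396.8 CPM in early libraries (log2 fold change 1.08 ± 0.27 SE, edgeR adjusted p = 0.108). Neither gene overlapped between the groups, and neither passed. Daughter separation and cell wall genes were split, with 6 of 35 peaks above and 6 below (median −0.15, −0.30 to 0.29). AMN1, which acts in daughter separation and shares its peak with ICS2, had 2207, 2084 and 2035 CPM in late libraries and 2954 and 3673 CPM in early libraries (edgeR adjusted p = 0.147). CWP1, a cell wall mannoprotein gene, had 689.3, 474.6 and 700.6 CPM in late libraries and 1095 and 1243 CPM in early libraries (edgeR adjusted p = 0.130). Both were on the lower side without passing.

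Among mating and pheromone genes, 4 of 16 peaks had all late libraries above and 1 all below (median 0.18, 0.11 to 0.45). STE2, for the alpha-factor receptor, shares a peak with GYP8 and had 694.8, 402.5 and 993.9 CPM in late libraries and 320.3 and 338.0 CPM in early libraries (edgeR adjusted p = 0.234). Autophagy and vacuole genes had a median of −0.07 (−0.30 to 0.07) over 19 peaks, and ATG19, for a cargo receptor, had 102.0, 214.7 and 264.7 CPM in late libraries and 283.5 and 341.1 CPM in early libraries, with time point 10 close to time point 6 (edgeR adjusted p = 0.638).

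Biosynthetic lists had small positive medians, of which that of nucleotide genes was −0.17 and that of sulfur genes −0.02 without time point 6. Nucleotide and one-carbon genes had a median of 0.19 (−0.17 to 0.36) over 20 peaks, 5 above and 3 below in all late libraries. GCV1, of the glycine cleavage complex, had 357.0, 358.6 and 331.1 CPM in late libraries and 185.6 and 182.2 CPM in early libraries (edgeR adjusted p = 0.336). All late libraries of GCV1 were above both early ones. Sulfur and methionine genes had a median of 0.12 (−0.02 to 0.34) over 30 peaks, 7 above and 2 below. That list includes the peak of CYC3, which is not a sulfur gene, shared with CLN3 of the G1/S list. Late and early libraries overlapped at that peak. MET13, for methylenetetrahydrofolate reductase, shares a peak with SOH1 and SCS3 and had 6523, 8255 and 5401 CPM in late libraries and 4820 and 3371 CPM in early libraries (edgeR adjusted p = 0.203). Amino acid biosynthesis genes had a median of 0.07 (0.07 to 0.26) over 52 peaks, 6 above and 6 below. SHM2, for the cytosolic serine hydroxymethyltransferase that feeds one-carbon units, shares a peak with REX2 and had 1064, 842.6 and 1032 CPM in late libraries and 412.7 and 558.3 CPM in early libraries (log2 fold change 1.01 ± 0.25 SE, edgeR adjusted p = 0.107). HIS4, of histidine synthesis, had 1401, 1963 and 1839 CPM in late libraries and 994.2 and 1159 CPM in early libraries (edgeR adjusted p = 0.224). The lists named further peaks by the same rule (those of FAA1, DIG1 with CAM1, HTZ1, AAC3, AAC1, ADE3, SAM4, RNR4 with TIM13, RSM10, MDH1, MRP17 and ATG40), whose edgeR adjusted p lay between 0.245 and 0.698.

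Translation factor genes had a median of −0.22 over 19 peaks (−0.49 without time point 10 to 0.01 without time point 8), 1 above and 4 below in all late libraries. At TEF1, for elongation factor 1 alpha, the promoter peak (chromosome XVI, 699850 to 700598) had 359.0, 427.1 and 376.5 CPM in late libraries and 656.0 and 564.0 CPM in early libraries (edgeR adjusted p = 0.376). A second peak over its coding region (700909 to 702109), chosen after its values were seen, had 588.7, 439.7 and 329.5 CPM in late libraries and 128.3 and 183.7 CPM in early libraries (log2 fold change 1.54, edgeR adjusted p = 0.116). The 2 peaks therefore stood on opposite sides without passing the test, and the coding region has a near-identical copy at TEF2, which makes the second value uncertain.

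The shift between the groups was set beside the steps between neighbouring time points. Over the 1826 nuclear peaks with at least 50 counts at each of time points 5 to 10, the median absolute log2 step was 0.37 from time point 5 to 6, 0.38 from 6 to 7, 0.49 from 7 to 8, 0.44 from 8 to 9 and 0.51 from 9 to 10. Steps of more than 1 on the log2 scale were taken by 250, 266, 351, 368 and 418 of these peaks in the same order. The step from 7 to 8, where early turns to late, was thus of the size of the steps within the late libraries. Spearman correlations over the 2042 peaks were 0.873 to 0.889 between late libraries, 0.867 to 0.887 between late and early libraries and 0.933 between the 2 early ones. The early libraries correlated with time points 1 to 5 with a median of 0.933, and the late libraries did so with a median of 0.854. Both the steps and these correlations describe libraries of unequal depth, with the fewest nuclear counts among the Oxidative libraries at time points 8 and 9.

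The 2 sets of peaks without overlap were described by their place in the genome. Of the 262 with all late libraries above, 43 (16.4%) lay within 20 kb of a chromosome end, against 19 of the 330 with all late libraries below (5.76%) and 163 of all 2042 peaks (7.98%). Subtelomeric families have near-identical copies, so single peaks there are uncertain. Divergent promoters made up 36.6% of the higher set, 33.3% of the lower set and 33.8% of all peaks. Peaks with no linked gene made up 17.9%, 12.4% and 13.5% in the same order, and peaks with a transfer RNA gene within 100 bp made up 6.49%, 8.48% and 10.5%.

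A smaller share of the late libraries' counts came from the mitochondrial genome and a larger share from the ribosomal DNA, the tandem array on chromosome XII that encodes ribosomal RNA. The mitochondrial share was 16.0%, 34.7% and 16.1% at time points 8, 9 and 10, against 46.7% and 34.8% at time points 6 and 7. Time point 9 was all but level with time point 7, so the groups were separate by a very small margin. The mean was 22.2% ± 10.8 (SD, n = 3) in late libraries and 40.8% ± 8.40 (SD, n = 2) in early libraries, a difference of −18.5 percentage points (two-sided exact permutation test, p = 0.2, the smallest that 3 against 2 libraries can give, and 0.7 after adjustment over 7 measures of composition).

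The ribosomal DNA share was 38.8%, 30.3% and 40.5% in late libraries and 26.5% and 20.5% in early libraries, without overlap. Its mean was 36.5% ± 5.43 (SD, n = 3) in late libraries and 23.5% ± 4.30 (SD, n = 2) in early libraries, a difference of 13.0 points (two-sided exact permutation test, p = 0.2, adjusted 0.7). Wilson 95% intervals of these shares were at most 0.0757 points wide and cover counting error only, since duplicate reads are not independent molecules. The nuclear share overlapped, with 45.2%, 35.0% and 43.4% in late libraries and 26.8% and 44.7% in early libraries.

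**Figure D5:**
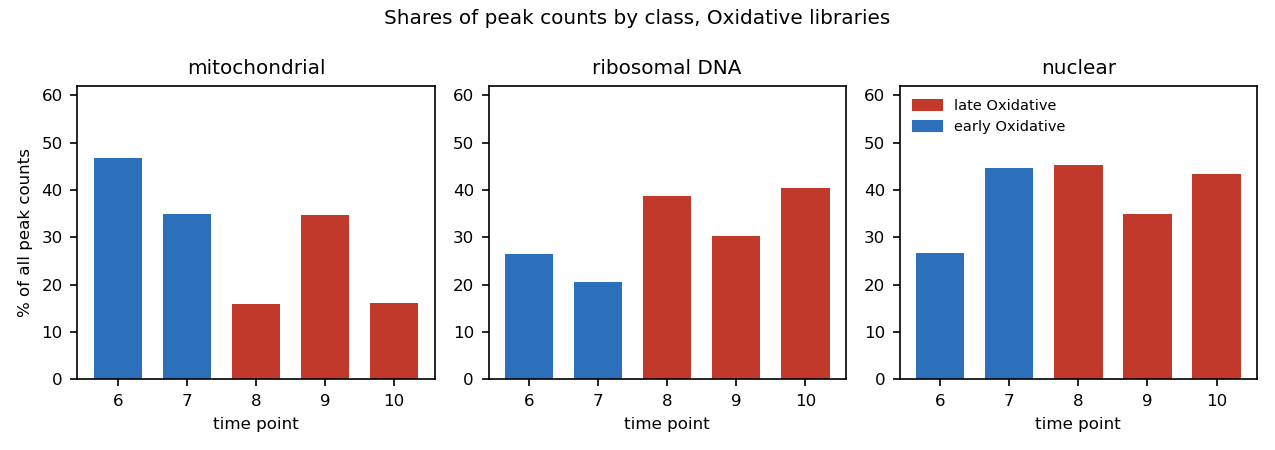
Bars give the percentage of each library's peak counts from mitochondrial, ribosomal DNA and nuclear peaks (vertical axis, starting at 0) at time points 6 to 10 (horizontal axis), red for late and blue for early Oxidative libraries. The mitochondrial share at time point 9 (34.7%) is almost that at time point 7 (34.8%), and the ribosomal DNA share is higher in each late library than in both early ones.

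Shares of one whole depend on each other, so each was also taken without the other. The ribosomal DNA share of counts outside the mitochondrial genome was 46.2%, 46.5% and 48.2% in late libraries and 49.8% and 31.4% in early libraries. Time point 6 then exceeded all late libraries, and the difference in means was 6.37 points (two-sided exact permutation test, p = 0.8). The mitochondrial share of counts outside the ribosomal DNA was 26.1%, 49.8% and 27.0% in late libraries and 63.6% and 43.8% in early libraries, with time point 9 above time point 7 (difference −19.4 points, two-sided exact permutation test, p = 0.4). Ribosomal DNA counts per nuclear count averaged 0.886 ± 0.0405 (SD, n = 3) in late libraries and 0.725 ± 0.378 (SD, n = 2) in early libraries, and these overlapped as well.

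Within the ribosomal DNA, the largest peak differed among the late libraries themselves. That peak, in the spacer between the 5S gene and the next 25S gene (chromosome XII, 459890 to 460467), took 50.4%, 50.3% and 38.2% of ribosomal DNA counts in late libraries and 39.6% and 38.6% in early libraries, with time point 10 as in the early ones. Of the 12 peaks, 10 overlapped between the groups and 2 had all late libraries below. One of those 2, in the 18S gene RDN18-1 (456998 to 457494), took 2.13%, 2.83% and 2.96% in late libraries and 3.46% and 4.10% in early libraries. Of the 32 mitochondrial peaks, 23 overlapped, 5 had all late libraries above and 4 all below. A peak in COX1, for a subunit of cytochrome oxidase (18031 to 19181), took 3.00%, 5.87% and 4.54% of mitochondrial counts in late libraries and 6.05% and 6.73% in early libraries. Another peak in COX1 (23405 to 23933) stood on the other side, with 2.16%, 1.41% and 1.64% in late libraries and 1.22% and 1.11% in early libraries. Of the 6 COX1 peaks, the largest (15184 to 17053) overlapped between the groups, with 13.4%, 8.81% and 10.4% in late libraries and 8.52% and 9.00% in early libraries. The peak over RPM1, the RNA of mitochondrial ribonuclease P (83749 to 85779), took 5.40%, 3.85% and 3.75% in late libraries and 2.71% and 3.18% in early libraries.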

How the data were processed

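ATAC-seq libraries were analysed from the deposited table, in which the authors give raw counts per peak for 1 common set of peaks. Per the labels' protocols, cells were fixed with formaldehyde and their nuclei transposed. The tools Trimmomatic, Bowtie2 and MACS2 and the build R64 are named in the submitters' processing notes. How reads were counted, whether insertion sites were shifted and what was done with duplicates and reads of several matches is not given in the sources used here. All count columns were matched to samples (0 left unmatched).

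The quasi-likelihood F test of edgeR 4.0.16 (R 4.3.3) was run on the nuclear peaks of the 5 Oxidative libraries, with library size set to nuclear counts; filterByExpr removed 0 peaks, and p-values were adjusted by Benjamini-Hochberg over 2042 peaks. Standard errors (SE) belong to log2 fold changes of late minus early. Each was the absolute log2 fold change divided by the square root of the test's F statistic, so it restates the test. Alternatives used DESeq2 1.42.0, limma 3.58.1 voom, other scalings, filters, libraries in the fit and linking distances. The tests were checked on simulated data. A peak was linked to each gene whose coding start lay within 500 bp; 691 peaks were linked on both strands. Levels in the other phases are given for the 13 libraries in which no more than 10% of nuclear peaks had 0 counts. Shares were compared by exact permutation.

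The groups' members and the gene lists were chosen with earlier results of these data known. Named genes were the 15 largest changes in each direction past the threshold (all, where fewer), the 2 members of each list with the smallest p, and RPL17B, MRPL10 and POX1; MRPL10 had no linked peak. Genes chosen otherwise are marked in the text. Base composition and motifs of the peaks were not analysed here.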

Additional observations from a re-analysis of the deposited data

How the results depend on the processing

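The number of peaks past the threshold, 10 as reported, was 8 with TMM scaling, DESeq2 size factors or totals of all peaks, and 10 without a filter or with counts thinned to the lowest nuclear total. It was 17 (2 higher and 15 lower) with the 13 well-covered libraries in the fit, 31 with only the 1835 peaks of at least 50 counts in every library, 32 with limma-voom, 18 (6 higher and 12 lower) with loess offsets, 47 (25 higher and 22 lower) with DESeq2, and 5 (3 of them shared) with a linear time term. It was 0 with all 18 libraries in the edgeR fit, which gave 10 peaks at an unadjusted p under 0.05. DESeq2, limma-voom, loess offsets and the filter of 50 counts each called all 10. The cause of these differences was not tested. Leaving out 1 library at a time gave 2 to 22 calls: 2 without time point 6, 4 without time point 7, 11 without time point 8, 22 without time point 9 and 16 without time point 10. Without time point 6 or 7, the lone early library was assumed to vary like the others.

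The number of peaks with all late libraries below was 104 with totals of all peaks, against 330, a setting chosen after seeing the data, as were all settings applied to the lists. RPL17B with ATG27, near 0 in the main fit, had a slope of −0.007 per time point on the log2 scale with the linear time term. The difference in the mitochondrial share ran from −24.7 to −12.6 points, and that in the ribosomal DNA share from 10.0 to 16.1 points, when 1 library was left out. List members past the threshold numbered 3 at a linking distance of 250 bp, 2 at 1000 bp and 3 with TMM. Of the recomputed fold changes of named peaks, 735 kept their direction and side of the threshold, 35 passed where the main fit had not, 43 no longer passed and 1, that of RPL17B, changed sign. No paired analysis was possible because each time point had 1 library and the replicate numbers only name libraries.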
